A study of Mus musculus with 71 samples.

Results

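The genes described here are 10 immediate-early genes of the mouse, which include subunits of the transcription factor AP-1: Fos, Fosb, Jun, Junb, Jund, Egr1, Ier2, Dusp1, Atf3 and Nr4a1. They were taken by symbol from every table of RNA expression in a study of the transcription factor Pax5, and all 10 were found, among 25579 genes in the tables of bone marrow B cell precursors and among 24420 genes in those of T cell precursors. The members were chosen by their expression values in these same tables, which were known to lie far apart between libraries, so their levels and fitted differences are given as a description, with no p value. Expression is given as TPM, the abundance of a gene's transcripts after scaling for gene length and for the size of the library.

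The 48 RNA-seq libraries were made from poly(A) RNA of cells sorted ex vivo from C57BL/6 mice, and fall into 3 sets. The first set held 25 libraries of B cell precursors: 5 of Pax5+/+ pro-B cells and 2 for each of 10 Pax5 mutant genotypes. The mutant alleles lacked the octapeptide (∆OP/∆OP), the homeodomain remnant (∆HD/∆HD) or both (∆OP,HD/∆OP,HD). Others lacked the C-terminal regions CRD1, CRD2 or both, each in homozygous form (∆CRD1/∆CRD1, ∆CRD2/∆CRD2, ∆CRD1,2/∆CRD1,2) and over a null allele (∆CRD1/−, ∆CRD2/−, ∆CRD1,2/−). The last genotype was ∆/∆, Vav-Cre Pax5 fl/fl progenitors without functional Pax5. The second set held 2 libraries each of Prd/∆ progenitors (Vav-Cre Pax5 Prd/fl, in which the remaining allele codes for the paired domain alone), ∆/∆ progenitors (Vav-Cre Pax5 fl/fl) and +/∆ pro-B cells (Vav-Cre Pax5 fl/+). Vav-Cre acts throughout the blood lineages, so the deletion was not limited to B cell precursors, and all 3 groups of the second set carried it. The T-lineage set held 17 libraries in all. They were of wild-type lymphoid-primed multipotent progenitors of the bone marrow (LMPP, 2 libraries), of successive thymic stages DN1, DN2a and DN2b (3 each) and DN3a and DN3b (2 each), and of Rag2(-/-) DN3a cells (2 libraries), which cannot rearrange antigen receptor genes. In each of DN1, DN2a and DN2b, 2 of the 3 libraries carry the same replicate number. Whether these come from the same sample is not stated, and they were counted as separate libraries. The labels give no ages, and the sort of the C-terminal mutants over a null allele is described for mice a few weeks old.

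Immediate-early genes are transcribed within minutes of a stimulus, without new protein synthesis, because their promoters are bound in advance by factors such as SRF and CREB that are switched on by kinases. AP-1 is a dimer of a Jun protein (Jun, Junb, Jund) with a Fos protein (Fos, Fosb) or an ATF relative such as Atf3. Egr1 is a zinc finger factor downstream of ERK signalling, Nr4a1 is an orphan nuclear receptor known as a marker of antigen receptor signalling, Ier2 is a small nuclear protein of the same early wave, and Dusp1 is a phosphatase that shuts off MAP kinases. Tissue dissociation and cell sorting are themselves known stimuli of these genes.

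The stretches of promoter that follow are shown because the cAMP response element (CRE, TGACGTCA) and its core TGACG are the only recognition letters of an inducible factor, among those searched, that the members' promoters held. RefSeq promoters, from 250 bases upstream to 50 bases downstream of the gene start (build GRCm38.p6), were found for 8 members, all but Egr1 and Ier2. The CRE was found in 1 of these 8 (Dusp1), against 1.79% of 32851 promoters of the same length. The core TGACG, which every CRE contains, was found in 6 of the 8 and in 20.8% of all promoters. Each stretch is 30 bases on the strand of the gene, 5′ to 3′, with the match in capitals. Where the match lies on the other strand, its letters read CGTCA. Nr4a1 held 4 matches of the core, Dusp1 3 and Fos 2, and 1 stretch is shown per gene.
Dusp1: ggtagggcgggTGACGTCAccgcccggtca
Fos: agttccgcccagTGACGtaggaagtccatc
Fosb: tggagttgcgggTGACGcaagcgcgggggc
Junb: gcttcctgacagTGACGcgagccgcctcct
Nr4a1: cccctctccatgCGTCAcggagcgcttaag
Atf3: ttaatagcattaCGTCAgcctgggattggt
These matches begin 143 bases (Dusp1), 66 (Fos), 60 (Fosb), 106 (Junb), 40 (Nr4a1) and 7 (Atf3) upstream of the RefSeq start. The stretches lie at chr17:26508597-26508626, chr12:85473812-85473841, chr7:19310088-19310117, chr8:84978837-84978866, chr15:101266794-101266823 and chr1:191183323-191183352, on the plus strand for Fos and Nr4a1 and on the minus strand for the other 4. In Fos a TATA box (TATAAA) begins 33 bases upstream of the start, in the stretch tcacagcgcttcTATAAAggcgccagctga at chr12:85473845-85473874. The TATAAA letters were found in 2 of the 8 members (Fos, Junb) and in 13.6% of all promoters. In Junb they begin at the RefSeq start itself and not upstream of it. The CCAAT box (CCAAT) was found in 3 of the 8 against 37.4%, and the GC box (GGGCGG) in 6 of the 8 against 35.7%. The CArG box bound by SRF (1.63% of all promoters), the AP-1 site (TGACTCA or TGAGTCA, 5.20%) and the EGR site (GCGTGGGCG, 0.612%) had no match in these 8 windows, and both strands were searched for each.

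The 31 libraries of the first and second sets held 10018678 to 43784791 reads, recovered from the TPM values, and the depth of the T-lineage set is unknown. Ebf1, a transcription factor that specifies the B cell lineage, was at 255 to 594 TPM in the 5 Pax5+/+ libraries and at 184 and 204 TPM in the ∆/∆ libraries, and Cd79a, a signalling chain of the B cell receptor, was at 2597 to 4361 TPM and at 439 and 452 TPM. The T cell marker list (8 genes) summed to 10569 to 13816 TPM in wild-type DN3a and DN3b cells and to 27.9 and 35.3 TPM in LMPP. Pax5 mRNA was not lost in ∆/∆ progenitors (1609 and 1697 TPM), and a value over the whole gene does not check the deleted exon. The Pax5+/+, ∆CRD1/− and ∆CRD2/− cells were sorted with a pro-B gate, whereas ∆CRD1,2/− cells and ∆/∆ progenitors were sorted with a different gate, and the gate of ∆CRD1,2/∆CRD1,2 cells for RNA is not given in the sources used here. In the second set the mutants are labelled as sorted with an alternative gating and the +/∆ control as pro-B cells, so genotype and gate cannot be told apart there, nor for ∆CRD1,2/−, ∆CRD1,2/∆CRD1,2 and ∆/∆ cells in the first set. In all these bulk samples a larger share of responding cells cannot be told apart from more RNA per cell.

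Libraries of the same genotype or stage lay furthest apart for Fos and Fosb. In ∆CRD1,2/∆CRD1,2 pro-B cells, Fos was at 95.1 TPM in replicate 1 and at 1.59 TPM in replicate 2, Fosb at 26.9 and 0.0635 TPM, Nr4a1 at 84.1 and 11.9 TPM, and Atf3 at 5.57 and 0.121 TPM. In the same pair of libraries Jun was at 213 and 36.9 TPM, Dusp1 at 48.2 and 8.02 TPM and Egr1 at 17.1 and 6.79 TPM. Replicate 1 was thus the higher library for each of these 7 genes, while Junb (134 and 77.9 TPM), Jund (156 and 84.7 TPM) and Ier2 (187 and 152 TPM) differed by less than 2-fold. Of 12016 genes above 1 TPM in that pair, 4.27% differed by more than 2-fold, against 7 of the 10 members. Fosb and Atf3 passed 1 TPM in replicate 1 alone, so they entered this count through the high library. The members were chosen with values known to lie far apart between libraries. Their shares, here and in the pairs that follow, are therefore a description.

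The T-lineage set held such pairs in LMPP and in DN3a cells. In LMPP, Fos was at 227 TPM in replicate 1 and 3.39 TPM in replicate 2, Fosb at 88.7 and 0.383 TPM, Nr4a1 at 154 and 7.26 TPM, and Egr1 at 179 and 14.9 TPM. In DN3a cells, Fos was at 92.0 TPM in replicate 1 and 0.492 TPM in replicate 2, Fosb at 47.5 and 0.730 TPM, Junb at 821 and 74.7 TPM, and Jun at 409 and 56.8 TPM. The LMPP pair differed by more than 2-fold in 8 of 10 members, all higher in replicate 1, against 3.37% of all genes. The DN3a pair did so in 6 of the 9 members above 1 TPM, against 3.26% of all genes. In DN3a cells, unlike in LMPP, Egr1 (48.3 and 31.9 TPM) and Nr4a1 (42.3 and 27.0 TPM) lay within 2-fold between the replicates.

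Smaller differences of this kind occurred in 3 further pairs of the pro-B set. Fos was at 23.3 and 3.88 TPM in ∆CRD2/∆CRD2 replicates 1 and 2, at 20.5 and 3.31 TPM in ∆CRD1,2/− replicates 1 and 2, and at 2.70 and 16.7 TPM in ∆CRD2/− replicates 1 and 2. In ∆CRD2/− cells the higher library was therefore replicate 2, and Jun followed it (67.0 and 169 TPM) while Fosb did less so (0.272 and 0.589 TPM). Each of these 3 pairs had 3 members more than 2-fold apart, of 9 or 10 above 1 TPM, against 11.4%, 6.61% and 7.18% of all genes. In the Prd set none of the 8 or 9 members above 1 TPM in a pair differed by more than 2-fold in any of the 3 pairs, against 5.50% (Prd/∆), 2.67% (∆/∆) and 2.25% (+/∆) of all genes.

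Over all libraries of the pro-B set, the pooled SD within genotypes on the log2 scale was 1.47 for Fos, above that of 99.1% of the 9871 genes with a mean over 5 TPM. It was 0.62 for Jun (97.2%), 0.66 for Nr4a1 (97.4%) and 0.55 for Dusp1 (96.5%), but 0.18 for Ier2 (52.3%), which equals the median of 0.18 over these genes. In the T-lineage set the SD of Fos was 2.47 and that of Fosb 2.19, where the median gene had 0.22. In the Prd set the SD of Fos was 0.06, below the median of 0.12. Fos was therefore among the most variable genes within groups in the pro-B and T-lineage sets and not in the Prd set. Other members did lie above most genes there, with 0.43 for Nr4a1 (97.1%), 0.24 for Jund (88.2%) and 0.20 for Egr1 (82.5%). Jun (65.0%), Junb (33.3%), Ier2 (28.8%) and Dusp1 (18.0%) ranked lower. These SDs of the Prd set rest on 6 libraries in 3 groups. Since the members were chosen with values known to lie far apart between libraries, all these percentiles are a description.

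Values of other genes in these and further pairs are as follows, some of which differed together with Fos. The granulocyte and macrophage marker list (12 genes) summed to 1578 TPM in ∆CRD1,2/∆CRD1,2 replicate 1 and 500 TPM in replicate 2, and to 5459 and 459 TPM in ∆CRD2/∆CRD2. In ∆CRD2/− cells it ran the other way to Fos, with 11315 TPM in the replicate with low Fos and 855 TPM in the replicate with high Fos. The ∆CRD1,2/− libraries were at 855 to 1477 TPM, and the 5 Pax5+/+ libraries ranged from 479 to 5105 TPM. Pairs level in Fos also differed in this list, with 451 to 4258 TPM in ∆OP,HD/∆OP,HD and 439 to 2863 TPM in ∆/∆ cells. The ∆HD/∆HD pair had 352 to 1224 TPM. Closer together were ∆OP/∆OP (3362 to 3870 TPM), ∆CRD1/∆CRD1 (519 to 706 TPM) and ∆CRD1/− cells (230 to 364 TPM). In LMPP the list (9 genes in these tables) was at 2504 and 2629 TPM, and in DN3a cells at 54.7 and 49.0 TPM, in both cases nearly level between replicates that differed in Fos by far more. The heat-shock gene Hspa1a, induced by protein stress, was at 95.3 TPM in DN3a replicate 1 and 4.58 TPM in replicate 2, and Hspa1b at 113 and 9.24 TPM. In ∆CRD1,2/∆CRD1,2 cells the higher library was likewise replicate 1, with Hspa1a at 4.64 and a listed 0 TPM and Hspa1b at 6.67 and 0.398 TPM, where Pax5+/+ libraries had 0.357 to 2.08 and 1.81 to 2.95 TPM. In LMPP, Hspa1a was at 2.70 and 3.05 TPM. Hspa1a was higher in the library with high Fos of ∆CRD2/∆CRD2 (0.778 against 0.341 TPM) and ∆CRD2/− cells (0.609 against 0.367 TPM). In ∆CRD1,2/− cells it was lower there (0.245 against 0.419 TPM). In pairs level in Fos it was at 0.172 and 3.20 TPM in Prd/∆ and at 0.537 and 2.10 TPM in +/∆ cells. The heat-shock list that holds Hspa1a and Hspa1b (9 genes in these tables) summed to 5684 and 5816 TPM in DN3a cells. Whether contaminating cells or handling of the cells had a part in the levels of the members was not tested.

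**Figure D1:**
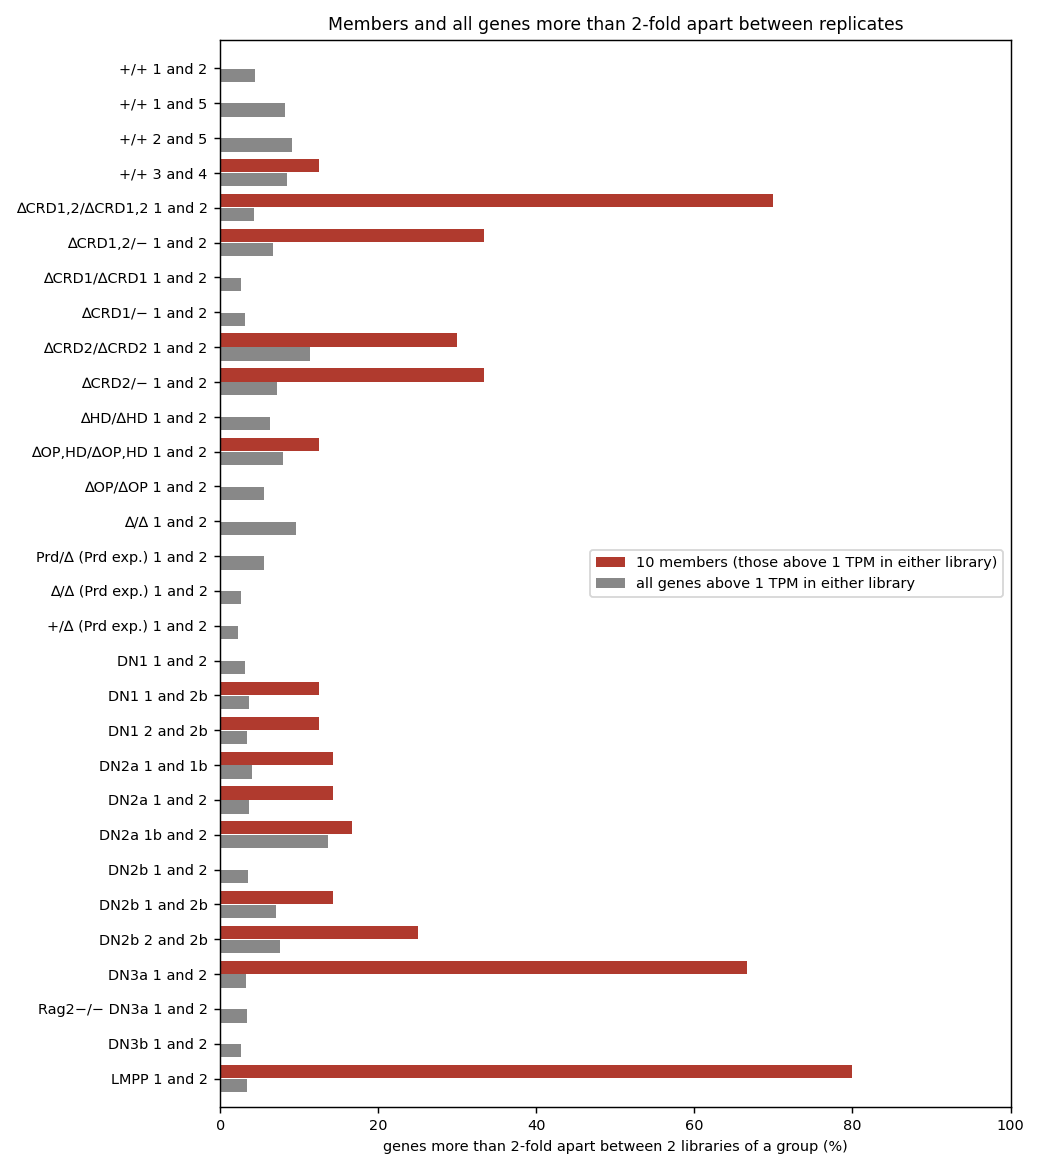
For each pair of libraries of the same group, the share of the members above 1 TPM that differed by more than 2-fold is shown beside the share of all genes above 1 TPM that did so, in percent; a letter b marks a second library with the same replicate number. Members more than 2-fold apart were 8 of 10 in the LMPP, 7 of 10 in the ∆CRD1,2/∆CRD1,2 and 6 of 9 in the DN3a pair. All genes stay between 2.25% and 13.6% in every pair. The members were chosen with values known to lie far apart between libraries, so their shares are a description.

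The pro-B genotypes were compared with Pax5+/+ cells, and the fitted differences are on the log2(TPM + 0.1) scale with standard errors. Among the Fos proteins, Fos was at 3.47 to 7.95 TPM in the 5 Pax5+/+ libraries (5.21 ± 1.79 TPM, SD, n = 5) and Fosb at 0.171 to 0.762 TPM. Fos was higher in both ∆/∆ libraries, at 12.4 and 11 TPM, with Fosb at 1.03 and 0.899 TPM, and neither gene overlapped with Pax5+/+ cells. The fitted difference of Fos was 1.27 ± 1.19, so its standard error is nearly as large as the difference. The same difference had a standard error of 0.33 in a fit without the 4 high-Fos libraries of the discordant pro-B pairs, ∆CRD1,2/∆CRD1,2, ∆CRD2/∆CRD2 and ∆CRD1,2/− replicate 1 and ∆CRD2/− replicate 2. These libraries were left out for their high Fos, a choice that itself lowers this error. In ∆CRD1/∆CRD1 cells Fos was lower than in all Pax5+/+ libraries (2.48 and 1.84 TPM). In ∆OP/∆OP (3.47 and 2.45 TPM), ∆HD/∆HD (5.00 and 4.79 TPM), ∆OP,HD/∆OP,HD (5.92 and 4.21 TPM) and ∆CRD1/− cells (2.98 and 3.75 TPM), Fos lay within or just below the range of Pax5+/+ cells.

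Jun was at 44.6 to 84.6 TPM in Pax5+/+ libraries (64.2 ± 15.7 TPM, SD, n = 5). It was above all of them in ∆CRD1/− cells (137 and 167 TPM, log2 difference 1.64 ± 0.55), in ∆/∆ progenitors (144 and 146 TPM, 0.97 ± 0.50) and, by less, in ∆HD/∆HD cells (91.4 and 93.0 TPM, 0.92 ± 0.55). The homozygous counterpart of the first, ∆CRD1/∆CRD1, had 73.7 and 97.0 TPM and overlapped with Pax5+/+ cells. Junb, which often restrains the growth-promoting action of Jun, was at 43.7 to 102 TPM in Pax5+/+ libraries and overlapped with them in all 10 mutants. In ∆CRD1,2/∆CRD1,2 cells its log2 difference was 1.12 ± 0.24, at 134 and 77.9 TPM.

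Jund, the Jun protein of resting cells, had the highest level of all 10 members per length, at 171 to 383 TPM in Pax5+/+ libraries (266 ± 92.8 TPM, SD, n = 5). It lay below every Pax5+/+ library in 7 of the 10 mutants. The lowest TPM values were those of ∆CRD1,2/− cells (41.1 and 72.5 TPM, log2 difference −1.68 ± 0.30) and ∆CRD1/− cells (82.4 and 85.5 TPM, −1.06 ± 0.30). In ∆/∆ progenitors (104 and 122 TPM) the log2 difference was −1.52 ± 0.27. In ∆OP/∆OP (133 and 199 TPM), ∆CRD1/∆CRD1 (176 TPM in both) and ∆CRD2/∆CRD2 cells (131 and 185 TPM) it overlapped with Pax5+/+ cells. The ∆CRD1/∆CRD1 libraries, read with 50 nucleotides, overlapped only with the Pax5+/+ libraries read with 100 nucleotides (171 and 178 TPM) and lay below those of their own read length (266 to 383 TPM).

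Egr1 was at 16.0 to 44.7 TPM in Pax5+/+ libraries (26.7 ± 11.2 TPM, SD, n = 5). The ∆/∆ progenitors were the lowest of all genotypes, at 3.84 and 5.10 TPM, a log2 difference of −2.82 ± 0.31. The ∆CRD1,2/− cells followed with 6.82 and 9.51 TPM (−1.09 ± 0.34), then the ∆CRD1/− cells with 11.6 and 10.6 TPM (−0.63 ± 0.34), and these 3 genotypes did not overlap with Pax5+/+ cells. In ∆CRD2/∆CRD2 (28.0 and 27.2 TPM), ∆CRD2/− (17.7 and 27.0 TPM) and the central domain mutants (13.2 to 30.1 TPM) they did. Marker lists also differed between genotypes. The LMPP list (4 genes, of which pro-B cells express Kit) summed to 80.8 to 111 TPM in Pax5+/+ cells, 388 to 445 TPM in ∆CRD1/−, 569 to 654 TPM in ∆CRD1,2/−, 596 to 694 TPM in ∆CRD1,2/∆CRD1,2 and 672 to 808 TPM in ∆/∆ cells. The study reports Flt3 and Ly6a of this list as genes repressed by Pax5, so the sum does not measure cell type alone. The plasmacytoid dendritic cell list (4 genes) summed to 6.02 to 37.0 TPM in Pax5+/+ and 238 to 472 TPM in ∆/∆ cells, and the part of these markers in the members' levels was not tested. Nr4a1 was at 12.3 to 17.3 TPM in Pax5+/+ cells, and below that range in ∆CRD1/− cells (6.18 and 6.27 TPM), ∆CRD2/− cells (9.93 and 11.3 TPM) and ∆HD/∆HD cells (9.80 and 7.63 TPM).

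Ier2 was the steadiest member, at 106 to 139.6 TPM in Pax5+/+ libraries (121 ± 16.3 TPM, SD, n = 5). It lay above that range in ∆CRD1/∆CRD1 (195 and 188 TPM, log2 difference 0.59 ± 0.16), ∆CRD1/− (184 and 171 TPM, 0.67 ± 0.17), ∆CRD1,2/∆CRD1,2 (187 and 152 TPM, 0.60 ± 0.17), ∆OP,HD/∆OP,HD (159 and 161 TPM) and ∆/∆ cells (159 and 144 TPM). Dusp1 was at 16.4 to 26.7 TPM in Pax5+/+ libraries, and both ∆/∆ libraries (14.7 and 13.3 TPM) were below this range, where the log2 difference was −0.89 ± 0.45. The ∆CRD1/∆CRD1 libraries (15.2 and 17.7 TPM) were below the 3 Pax5+/+ libraries of the same read length (25.2 to 26.7 TPM). Atf3 stayed below 1 TPM in all Pax5+/+ libraries, and passed it only in 3 mutant libraries, ∆CRD1,2/∆CRD1,2 replicate 1 (5.57 TPM), ∆CRD2/∆CRD2 replicate 1 (1.73 TPM) and ∆CRD2/− replicate 2 (1.31 TPM), which were the libraries with high Fos of their pairs.

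Members called by limma at a Benjamini-Hochberg adjusted p under 0.05 were Jund and Ier2 in ∆CRD1/− cells, Jund and Egr1 in ∆CRD1,2/− cells, Ier2 in ∆CRD1/∆CRD1 cells, Junb and Ier2 in ∆CRD1,2/∆CRD1,2 cells, and Egr1 and Jund in ∆/∆ progenitors. The share of all 14000 genes called was 12.4%, 25.9%, 9.63%, 26.3% and 37.1% in these comparisons, in that order. For ∆OP/∆OP, ∆HD/∆HD, ∆OP,HD/∆OP,HD, ∆CRD2/− and ∆CRD2/∆CRD2 cells, 1.02%, 1.00%, 1.78%, 1.50% and 0.114% of genes were called. The number of members without overlap with Pax5+/+ cells was 7 of 10 in ∆/∆ progenitors (41.4% of all genes), 5 in ∆CRD1/− (33.7%), 4 in ∆HD/∆HD (17.4%) and 3 each in ∆CRD2/− (12.5%) and ∆CRD1/∆CRD1 cells (22.7%). It was 2 each in ∆OP/∆OP (22.5%), ∆OP,HD/∆OP,HD (19.0%), ∆CRD1,2/− (41.3%) and ∆CRD1,2/∆CRD1,2 cells (45.4%) and 1 in ∆CRD2/∆CRD2 cells (9.20%). A further fit left out the 4 high-Fos libraries, which were set aside for the members' own values, so it is a description as well. It left 1 library each of ∆CRD1,2/−, ∆CRD1,2/∆CRD1,2, ∆CRD2/− and ∆CRD2/∆CRD2 cells. Where both libraries were kept, limma called 4 members in ∆CRD1/− cells (Ier2, Jun, Jund, Nr4a1) and 3 in ∆CRD1/∆CRD1 cells (Dusp1, Ier2, Jund). In ∆/∆ cells it called 5 (Dusp1, Egr1, Fos, Jun, Jund). The share of all genes called was 12.9%, 9.15% and 37.6%, in that order. Where 1 library was left, the log2 difference of Egr1 was −0.85 in ∆CRD1,2/− cells. In ∆CRD1,2/∆CRD1,2 cells it was 0.45 for Ier2 and −1.67 for Fos. In the comparisons of ∆OP/∆OP, ∆HD/∆HD and ∆OP,HD/∆OP,HD cells no member was called in this fit either, with 0.968%, 1.13% and 1.86% of all genes called. Since the values of these comparisons were known when the members were chosen, nothing is read from these counts. The median log2 difference of the members was 0.99 in ∆CRD1,2/∆CRD1,2 cells, but −0.71 when the single high library, replicate 1, was left out. In ∆CRD1,2/− cells it was 0.35 with both libraries and −0.32 without replicate 1. In the 8 other comparisons it lay between −0.23 and 0.45.

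**Figure D2:**
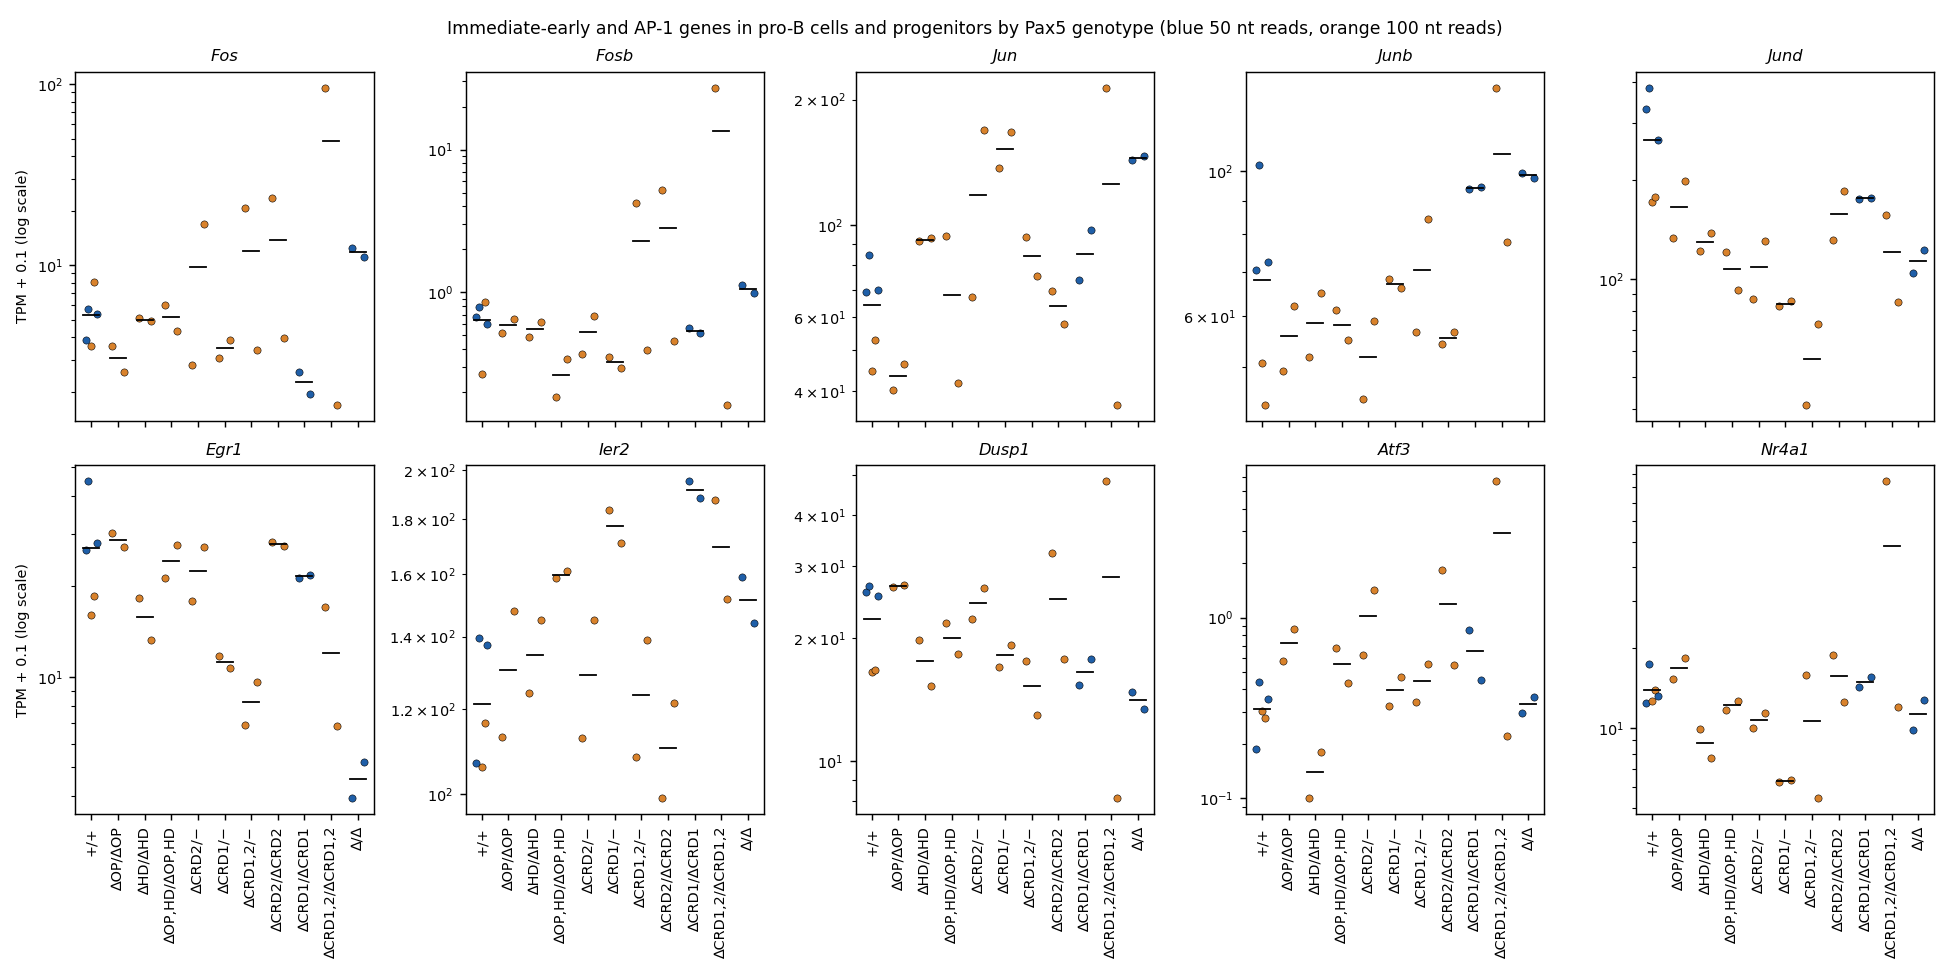
The 10 members in each of the 25 libraries of the pro-B set, as TPM + 0.1 on a log axis, by genotype. Points are libraries, coloured by read length (blue 50, orange 100 nucleotides), and a bar marks the mean of a genotype. Egr1 and Jund are low in both ∆/∆ libraries, whereas the high means of Fos, Fosb and Atf3 in ∆CRD1,2/∆CRD1,2 cells come from replicate 1 alone.

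Pax5+/+ cells were sequenced with reads of both 50 and 100 nucleotides. The authors cut all reads to 50 nucleotides, so read length here marks groups of sequencing runs, which may also differ in other ways. Jund was at 266 to 383 TPM in the 3 libraries with 50 nucleotides and at 171 and 178 TPM in the 2 with 100 nucleotides. Egr1 (26.3 to 44.7 against 16.0 and 18.5 TPM), Junb (70.4 to 102 against 50.8 and 43.7 TPM) and Dusp1 (25.2 to 26.7 against 16.4 and 16.7 TPM) were likewise higher in every library of the 50-nucleotide group, and Fos was not (3.76 to 5.59 against 3.47 and 7.95 TPM). The fitted term of read length, 50 minus 100 nucleotides, was 0.88 ± 0.27 for Jund, 0.89 ± 0.31 for Egr1 and 0.77 ± 0.22 for Junb on the log2 scale, and its median over all genes was 0.17. Against the 3 Pax5+/+ libraries of the same read length, the ∆/∆ values of Jund and Egr1 were lower, and against the 2 libraries with 100 nucleotides, so were those of ∆CRD1,2/− and ∆CRD1/− cells. In ∆CRD1/∆CRD1 cells, read with 50 nucleotides, Jund (176 TPM in both) and Egr1 (21.3 and 21.8 TPM) were also below the 3 Pax5+/+ libraries of that read length. Junb lay above both Pax5+/+ libraries with 100 nucleotides in ∆HD/∆HD (51.7 to 64.8), ∆OP,HD/∆OP,HD (54.9 to 61.1) and ∆CRD2/∆CRD2 cells (54.3 to 56.6 TPM). So it did in ∆CRD1/− (66.0 to 68.1), ∆CRD1,2/− (56.5 to 84.4) and ∆CRD1,2/∆CRD1,2 cells (77.9 to 134 TPM). In ∆OP/∆OP and ∆CRD2/− cells it overlapped with them. Egr1 was above the same libraries in ∆OP/∆OP (27.0 to 30.1), ∆OP,HD/∆OP,HD (21.2 to 27.4) and ∆CRD2/∆CRD2 cells (27.2 to 28.0 TPM). In no other mutant of this read length was it above both.

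Within groups the members, like the median gene, scattered less in the second set than in the first. Here Prd/∆ progenitors had the highest Fos and Jun. Fos was at 47.9 and 51.0 TPM in Prd/∆ progenitors, at 11.4 and 12.4 TPM in +/∆ pro-B cells and at 1.68 and 1.64 TPM in ∆/∆ progenitors. Fosb was ordered likewise, at 2.55 and 3.16, 1.17 and 0.815, and 0.142 and 0.146 TPM. Jun was at 1079.8 and 942 TPM in Prd/∆ progenitors, the highest level of any member in the 48 libraries, at 201 and 245 TPM in +/∆ cells and at 126 and 119.8 TPM in ∆/∆ progenitors. The 3 groups did not overlap for any of these 3 genes. The log2 difference of Prd/∆ from +/∆ cells was 2.05 ± 0.13 for Fos, 1.45 ± 0.37 for Fosb and 2.18 ± 0.12 for Jun, and that of ∆/∆ from +/∆ cells was −2.76 ± 0.13, −2.15 ± 0.37 and −0.85 ± 0.12. Between the 2 mutants the difference was 4.81 ± 0.13 for Fos, 3.59 ± 0.37 for Fosb and 3.04 ± 0.12 for Jun.

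Junb and Ier2 were highest in Prd/∆ progenitors by much less. Junb was at 119 and 133 TPM there, at 86.0 and 90.8 TPM in +/∆ cells and at 99.9 and 109 TPM in ∆/∆ progenitors, and Ier2 was at 217 and 244, 171 and 185, and 176 and 178 TPM. Jund and Egr1 were ordered the other way, with +/∆ cells on top. Egr1 was at 26.1 and 27.2 TPM in +/∆ cells, 7.62 and 7.47 TPM in Prd/∆ and 3.18 and 4.50 TPM in ∆/∆ progenitors, and Jund was at 256 and 303, 119 and 164, and 77.1 and 92.1 TPM. Dusp1 was level in +/∆ (27.5 and 29.5 TPM) and Prd/∆ cells (26.8 and 29.0 TPM) and lower in ∆/∆ progenitors (13.5 and 13.1 TPM, log2 difference from +/∆ −1.09 ± 0.10). Nr4a1 did not separate ∆/∆ progenitors (7.34 and 12.9 TPM) from either group, and Atf3 was at 0.0816 to 0.449 TPM in the 6 libraries, on 3 to 13 reads each.

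Among the 9 members tested, limma called 7 between Prd/∆ and +/∆ cells (5 higher, 2 lower, with 40.7% of 12941 genes called), 6 between ∆/∆ and +/∆ cells (all lower, 39.9%) and 4 between Prd/∆ and ∆/∆ progenitors (Fos, Fosb, Jun and Dusp1, all higher, 1.97%). Without overlap were 9, 7 and 8 of the 10 members in these comparisons, against 73.0%, 77.4% and 47.4% of all genes. The 3 comparisons share their libraries, and the members' values in them were known when the members were chosen. The same genotype, ∆/∆, had Fos at 12.4 and 11 TPM in the first set and at 1.68 and 1.64 TPM in the second, and Jun at 144 and 146 against 126 and 119.8 TPM. Against the control of its own set, Fos was thus higher in ∆/∆ progenitors of the first set and lower in those of the second. There the control carried 1 functional Pax5 allele and a Cre, and the ∆/∆ cells are labelled with an alternative gating that the label of the first set lacks. The granulocyte and macrophage list was at 302 and 330 TPM in Prd/∆, 296 and 487 TPM in ∆/∆ and 117 and 149 TPM in +/∆ cells. The LMPP list was at 579.8 to 633 TPM in Prd/∆, 561 to 574 TPM in ∆/∆ and 71.5 to 81.9 TPM in +/∆ cells, and the plasmacytoid dendritic cell list at 89.3 to 90.9, 85.6 to 132 and 3.45 to 4.35 TPM. The heat-shock list (10 genes) summed to 4743 to 5259 TPM in Prd/∆, 4429 to 4613 TPM in ∆/∆ and 3345 to 3352 TPM in +/∆ cells, and limma called 5 of its genes higher between Prd/∆ and +/∆ cells, 2 higher between ∆/∆ and +/∆ cells and 2 higher between Prd/∆ and ∆/∆ progenitors, with none lower. The part of these lists in the levels of the members was not tested.

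**Figure D3:**
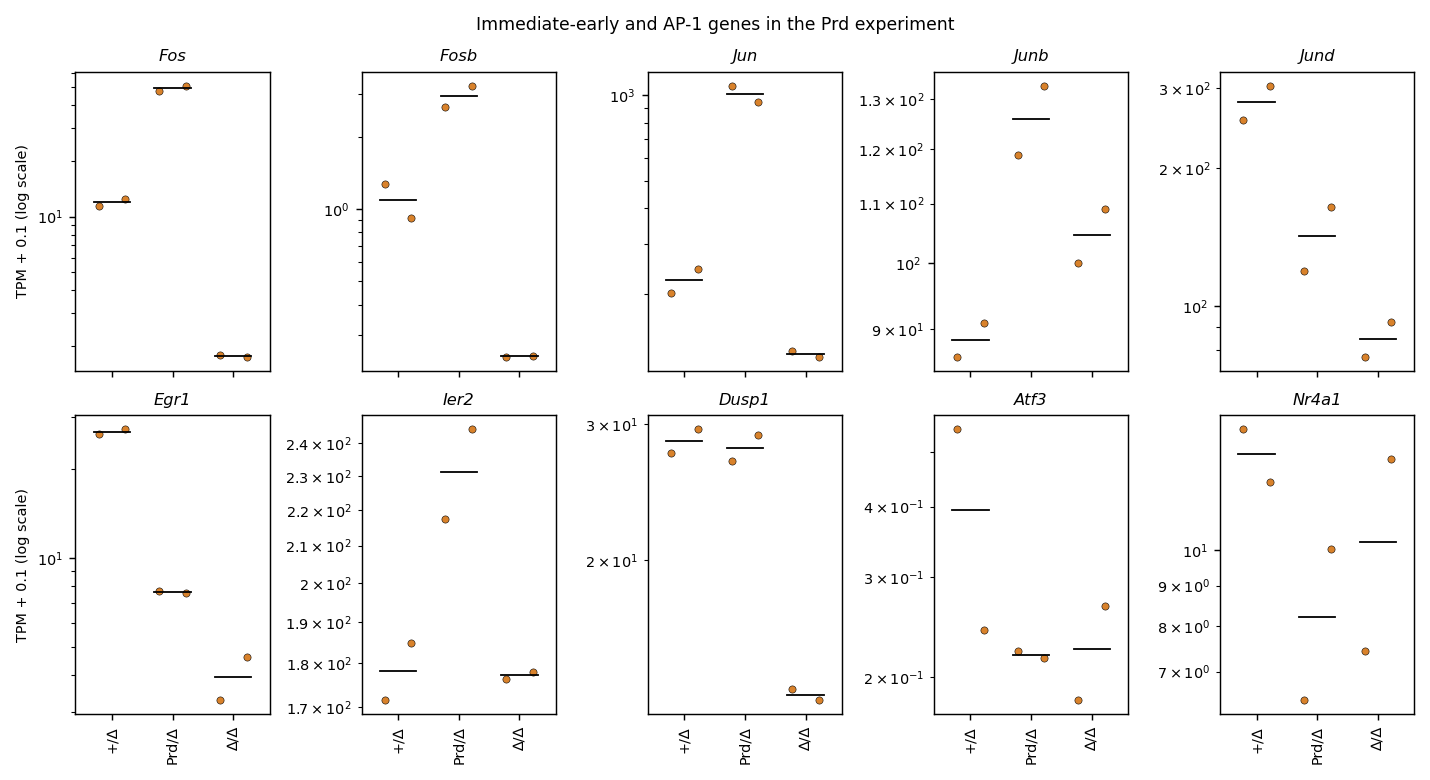
The 10 members in the 6 libraries of the Prd set, as TPM + 0.1 on a log axis, by genotype, with points for libraries and a bar for the mean of a genotype. Fos, Fosb and Jun are highest in Prd/∆ and lowest in ∆/∆ progenitors, whereas Egr1 and Jund are highest in +/∆ pro-B cells.

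Along the T lineage, Egr1 and Nr4a1 were low in the DN2 stages and high in DN3 cells. Egr1 was at 2.56 to 3.70 TPM in the 3 DN1 libraries, 0.411 to 1.53 TPM in DN2a and 0.898 to 1.19 TPM in DN2b, and then at 48.3 and 31.9 TPM in DN3a and 28.4 and 37.1 TPM in DN3b cells. Nr4a1 was at 29.1 to 32.0 TPM in DN1, 3.54 to 7.05 TPM in DN2a and 2.38 to 4.43 TPM in DN2b, and at 42.3 and 27.0 TPM in DN3a and 37.3 and 28.7 TPM in DN3b cells. DN3a did not overlap with DN2b for either gene, and DN3a and DN3b overlapped for both. The log2 difference of DN3a from DN2b was 5.16 ± 0.74 for Egr1 and 3.32 ± 0.84 for Nr4a1.

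In Rag2(-/-) DN3a cells, the same stage without a rearranged receptor, Egr1 was at 0.547 and 0.997 TPM and Nr4a1 was at 0 in 1 library and at 0.124 TPM in the other. A 0 in this set includes entries of exactly 1, which were read as 0. Both genes were thus far below wild-type DN3a cells in each library. The log2 difference was −5.54 ± 0.81 for Egr1 and −7.82 ± 0.92 for Nr4a1, the latter on a scale whose floor is the added 0.1 TPM. Leaving out DN3a replicate 1 gave −5.25 and −7.50. Junb (64.7 and 68.9 TPM), Ier2 (57.6 and 59.5 TPM) and Fosb (0.186 and 0.0811 TPM) were also below both wild-type DN3a libraries, whose lower values were 74.7, 64.0 and 0.730 TPM in replicate 2. Of the other members, Jun (85.5 and 137 TPM), Jund (214 and 263 TPM) and Dusp1 (22.4 and 23.4 TPM) overlapped with the wild-type DN3a values, and Fos was at 0.134 and 0.837 TPM, around the 0.492 TPM of DN3a replicate 2. Hspa1a was at 0 in both Rag2(-/-) libraries.

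The Jun proteins had separate courses. Jun was at 5.32 to 6.66 TPM in DN1, 4.95 to 7.44 TPM in DN2a and 14.1 to 30.2 TPM in DN2b, so that DN2b lay above both earlier stages. It was at 409 and 56.8 TPM in DN3a and at 16.6 and 10.8 TPM in DN3b cells. Jund was at 126 to 159 TPM in DN1, 84.8 to 172 TPM in DN2a, 216 to 304 TPM in DN2b, 375 and 233 TPM in DN3a and 134 and 109.5 TPM in DN3b cells, and DN2b lay above all libraries of DN2a (log2 difference 0.93 ± 0.24). Junb was at 76.4 to 80.4 TPM in DN1, 36.3 to 52.0 TPM in DN2a, 36.1 to 54.5 TPM in DN2b and 63.7 and 53.1 TPM in DN3b cells. Among these stages only the DN3a replicate 1 value of Junb, 821 TPM, lay outside 36.1 to 80.4 TPM.

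Fos and Fosb were low in every thymic library but DN3a replicate 1. Outside it, Fos ranged from 0 to 3.42 TPM and Fosb from 0.0743 to 0.730 TPM. Atf3 was at 0 in 13 of the 15 thymic libraries and was at 3.21 and 0.244 TPM in LMPP. Ier2 was at 132 to 134 TPM in DN1, 86.0 to 124 TPM in DN2a, 77.7 to 99.5 TPM in DN2b, 128 and 64.0 TPM in DN3a and 64.0 and 60.0 TPM in DN3b cells, and neighbouring stages overlapped except DN1 and DN2a and, by a narrow margin, DN3a and DN3b. Dusp1 stayed between 7.39 and 13.3 TPM in DN1, DN2a, DN2b and DN3b cells and was at 51.6 and 19.7 TPM in DN3a cells.

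Limma called 4 members between DN1 and LMPP, 2 between DN2a and DN1, 1 between DN2b and DN2a, 5 between DN3a and DN2b, 4 between DN3b and DN3a, and 2 between Rag2(-/-) and wild-type DN3a cells. The share of 13482 genes called was 18.6%, 33.7%, 18.2%, 45.8%, 53.4% and 26.4%, in that order. Without overlap were 8, 5, 3, 6, 6 and 5 of the 10 members, against 49.2%, 42.2%, 25.5%, 65.6%, 81.3% and 72.6% of all genes. Without LMPP replicate 1 and DN3a replicate 1 the numbers of members called were 2, 4, 3, 5, 2 and 2 of 8 tested, with 10.3%, 29.6%, 16.3%, 30.8%, 41.8% and 12.3% of all genes called. These libraries were set aside for the members' own values, so the second series of counts is a description as well. The 5 called between DN3a and DN2b were Egr1, Nr4a1, Jun, Junb and Dusp1 in both. The median log2 difference of the members from DN2b to DN3a was 2.65 with both DN3a libraries and 0.74 without replicate 1, where all genes had 0.27, and from LMPP to DN1 it was −1.97 with both LMPP libraries and −0.40 without replicate 1. For the Rag2(-/-) comparison it was −1.26 and −0.14. Over all genes the median shifted by −0.18 from DN1 to DN2a, by −0.41 from DN3a to DN3b and by −0.18 in Rag2(-/-) cells, and the members' differences are to be read against these shifts.

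**Figure D4:**
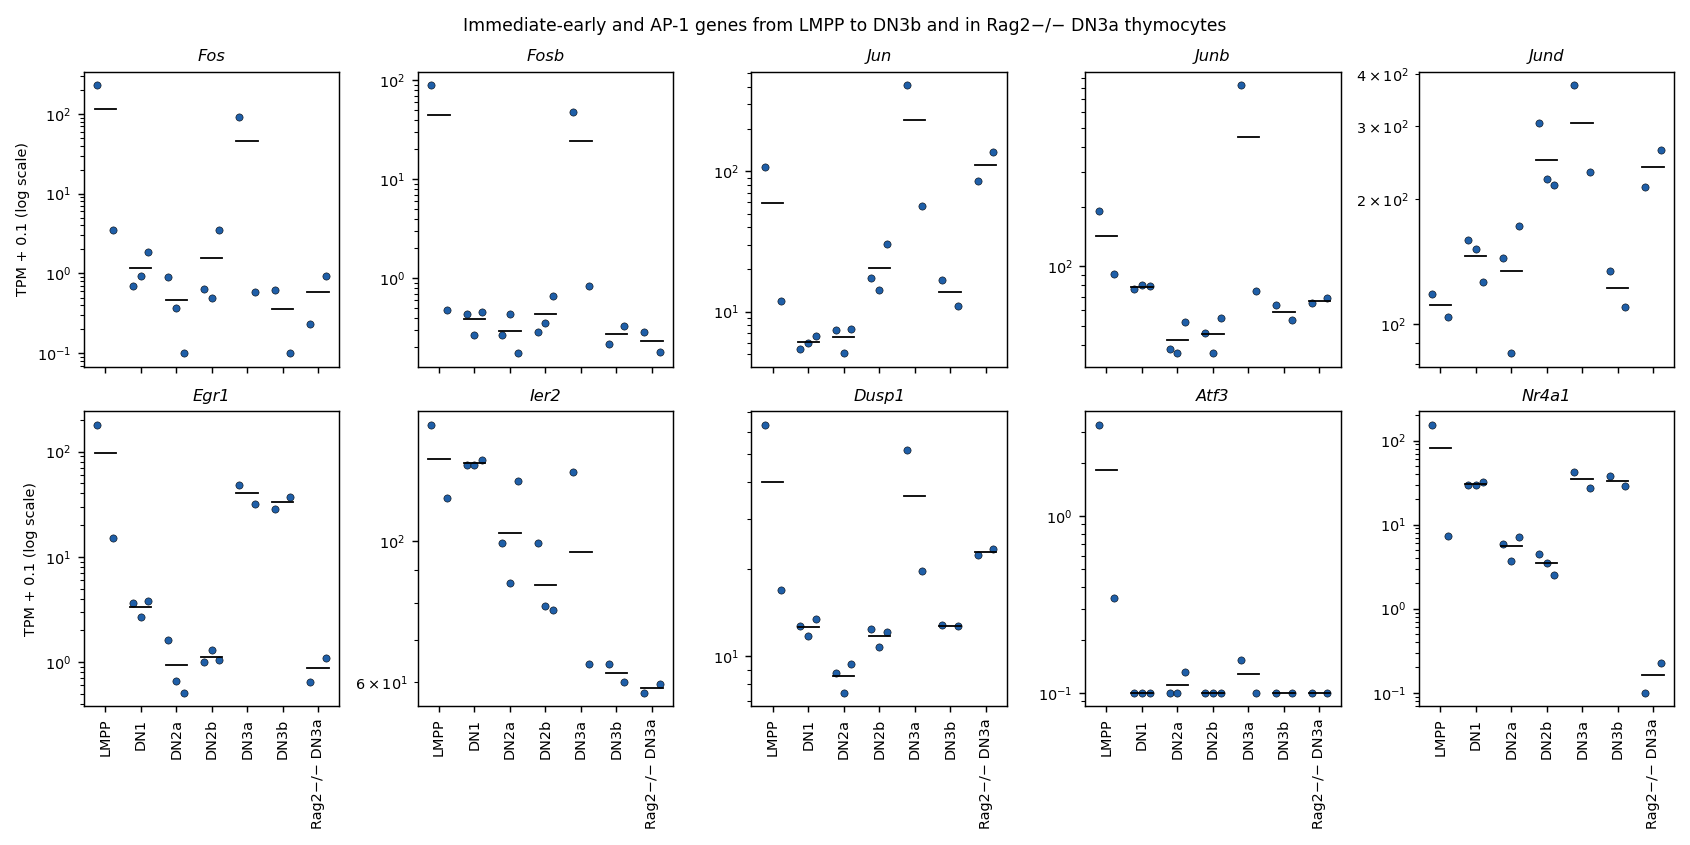
The 10 members in the 17 libraries of the T-lineage set, as TPM + 0.1 on a log axis, by stage, with points for libraries and a bar for the mean of a stage. Egr1 and Nr4a1 are high in both libraries of DN3a and of DN3b and low in Rag2(-/-) DN3a cells, whereas Fos and Fosb are high in 1 library of LMPP and 1 of DN3a.

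Beside the members, 48 other immediate-early and AP-1 genes were examined, of which 45 could be tested in the pro-B set. Of these 45, 32 were called in at least 1 of the 10 mutants, by limma with Benjamini-Hochberg adjustment over all genes as in all tests that follow, against 49.1% of all 14000 genes. The counts per comparison that follow are to be read beside the shares of all genes called in the same comparisons, given above for the members. All gene lists, like the members, were chosen with earlier results of these data known. The counts called and p values of their genes are therefore a description, here and in the other sets. The samples are not said to come from separate animals, so p values measure the spread between these samples. In ∆CRD1,2/− cells 26 were called (14 higher, 12 lower), in ∆/∆ progenitors 24 (10 higher, 14 lower), in ∆CRD1,2/∆CRD1,2 cells 22 (15 higher, 7 lower), in ∆CRD1/− cells 13 (9 higher, 4 lower) and in ∆CRD1/∆CRD1 cells 7 (5 higher, 2 lower). In ∆HD/∆HD, ∆OP,HD/∆OP,HD and ∆CRD2/− cells 1, 3 and 3 were called. In ∆OP/∆OP and ∆CRD2/∆CRD2 cells none was, with 6 and 5 at an unadjusted p under 0.05, 0 and 0 by edgeR and 1 and 1 by DESeq2.

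The AP-1 relatives that were called all rose. In ∆/∆ progenitors 4 of 8 tested did, among them Batf, a partner of Jun proteins in lymphocytes, at 43.9 ± 7.75 TPM (SD, n = 2) against 15.3 ± 5.50 TPM in Pax5+/+ cells (n = 5), a log2 difference of 1.76 ± 0.27 with an adjusted p of 5.97e-05 from limma. Its relative Batf2 rose by 2.89 ± 0.63 from 0.294 to 2.06 TPM (adjusted p = 0.00139 from limma). The small Maf protein gene Maff rose in ∆CRD1,2/− cells, from 1.36 to 3.48 TPM (log2 difference 1.75 ± 0.33, adjusted p = 8.42e-04 from limma).

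Of the other immediate-early transcription factors, 2 rose and 5 fell in at least 1 mutant. In ∆/∆ progenitors 1 of 9 rose and 4 fell, and in ∆CRD1,2/− cells 2 rose and 5 fell. Egr3, a close relative of Egr1, was at 2.98 ± 1.64 TPM in Pax5+/+ cells and 0.114 ± 0.0235 TPM in ∆/∆ progenitors, a log2 difference of −4.13 ± 0.61 (adjusted p = 4.12e-05 from limma). Klf2, a factor of lymphocyte quiescence, was at 49.6 ± 29.2 TPM in Pax5+/+ cells and 2.72 ± 0.419 TPM in ∆CRD1/− cells (−2.87 ± 0.44, adjusted p = 1.98e-04 from limma). Klf4 rose in ∆CRD1,2/∆CRD1,2 cells from 5.69 to 20.7 TPM (2.33 ± 0.28, adjusted p = 7.61e-06 from limma).

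Among the feedback and signalling genes (28 tested), 8 rose and 7 fell in ∆CRD1,2/− cells, and 5 rose and 10 fell in ∆/∆ progenitors. Dusp5, a nuclear phosphatase of ERK, was at 31.4 ± 7.38 TPM in Pax5+/+ cells and 176 ± 3.00 TPM in ∆/∆ progenitors (log2 difference 2.25 ± 0.15, adjusted p = 2.75e-09 from limma). The activation marker Cd69 and the kinase Plk2 rose in ∆CRD1,2/∆CRD1,2 cells by 2.55 ± 0.63 and 2.17 ± 0.51 (adjusted p = 0.00595 and 0.00433 from limma), with Cd69 at 183 and 42.7 TPM and Plk2 at 40.2 and 8.36 TPM in the 2 libraries. Both calls were lost when replicate 1, the library with high Fos, was left out, with differences of 1.5 (adjusted p = 0.137) and 1.05 (adjusted p = 0.109). Of 14 upstream kinases and SRF or CREB factors, 4 were called in ∆/∆ progenitors, where 37.1% of all genes were called, including the SRF partners Elk3 (185 against 91.1 TPM, 0.94 ± 0.11, adjusted p = 3.60e-06 from limma) and Elk4 (72.1 against 120.2 TPM, −1.10 ± 0.20, adjusted p = 3.43e-04 from limma). Without the term of read length the call of Elk4 was lost (−0.60, adjusted p = 0.163 from limma).

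In the Prd set 36 of 44 other immediate-early and AP-1 genes tested were called in at least 1 comparison, against 49.5% of all genes. Between Prd/∆ and +/∆ cells 21 rose and 10 fell, between ∆/∆ and +/∆ cells 13 rose and 14 fell, and between Prd/∆ and ∆/∆ progenitors 8 rose and 0 fell. Myc, which drives growth, was at 850 ± 91.5 TPM in Prd/∆ progenitors and 233 ± 2.20 TPM in +/∆ cells (log2 difference 1.86 ± 0.09, adjusted p = 4.75e-05 from limma). Cd69 was at 73.9 and 107 TPM in Prd/∆ progenitors and 16.7 TPM in both +/∆ libraries (2.41 ± 0.17, adjusted p = 1.50e-04 from limma). Batf rose from 14.7 to 52.5 TPM and Jdp2, a dimer partner of Jun, from 12.5 to 29.2 TPM (1.84 ± 0.12 and 1.22 ± 0.13, adjusted p = 1.06e-04 and 7.22e-04 from limma). Egr3 fell in ∆/∆ progenitors here too, from 1.88 to 0.0406 TPM (−3.82 ± 0.55, adjusted p = 0.00250 from limma).

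In the T-lineage set 42 of 45 were called in at least 1 comparison, against 84.8% of all genes. From DN1 to DN2a 25 fell and 0 rose, from DN2b to DN3a 20 rose and 8 fell, from DN3a to DN3b 3 rose and 25 fell, and in Rag2(-/-) against wild-type DN3a cells 4 rose and 17 fell. Without LMPP replicate 1 and DN3a replicate 1 the number called in the last comparison was 14 in place of 21. Egr2 and Egr3 rose from DN2b to DN3a as Egr1 did. They were at 3.40 ± 0.126 and 2.54 ± 0.280 TPM in DN3a against 0.144 ± 0.0447 and 0.0359 ± 0.0622 TPM in DN2b cells (3.86 ± 0.48 and 4.37 ± 0.80, adjusted p = 2.75e-05 and 6.84e-04 from limma). Socs3, an inhibitor of cytokine signalling, fell from 150.4 to 11.7 TPM between DN3a and DN3b (−3.67 ± 0.22, adjusted p = 2.83e-08 from limma), and the antiproliferative gene Btg1 fell from 99.1 to 10.9 TPM (−3.17 ± 0.14, adjusted p = 1.93e-09 from limma). Klf2 ran against the Egr genes from DN2b to DN3a, at 65.3 ± 18.0 TPM in DN2b and 10.7 ± 8.77 TPM in DN3a cells (−2.84 ± 0.54, adjusted p = 9.17e-04 from limma).

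The genes whose libraries deviated most like the members included other immediate-early genes, such as Zfp36 and Klf6, beside genes that are in none of the lists, such as Efna4 and Blk. Over the 25 pro-B libraries, after the means of the 11 genotypes were taken out, Zfp36, which destabilizes cytokine mRNAs, correlated with the mean of the members at r = 0.85, Klf6 at 0.82, Efna4 at 0.80, Plk2 and Nsg2 at 0.77, Sgk1 at 0.75, Atf4, a factor of the integrated stress response, at 0.74, and 5031425E22Rik, Tsc22d1 and a gene listed by identifier alone at 0.73. Over the 17 T-lineage libraries and 7 stages, Ppp1r15a, which reverses the integrated stress response, was at 0.93, Blk at 0.92, Zfp36 at 0.90 and Esm1 at 0.88. The entry Zfp511_IMP_OVL was at 0.86, Ly86 at 0.83, Hes1, Trdj1_ENSMUSG and Dctn2_IMP_OVL at 0.78 and Klf2 at 0.77. These points share their libraries and the few that stand apart weigh most, so r is a description without a p. Among the members themselves, Jun correlated with the mean of the other 9 at 0.91 in the pro-B set and 0.97 in the T-lineage set and Dusp1 at 0.91 and 0.98, whereas Ier2 was at 0.42 and 0.78 and Jund at 0.56 and 0.47. In the Prd set 6 libraries in 3 groups leave too few deviations to rank genes.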

How the data were processed

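Poly(A) RNA was sequenced for 48 libraries. In the pro-B and Prd sets the authors cut reads down to 50 nucleotides, used STAR 2.4.2a with the mm10 build of the genome, counted reads per RefSeq gene with Rsubread and deposited TPM. The raw counts used here, deposited for 2 libraries, are unnormalized. Files without gene names were read by the order of the named ones. For the T-lineage set the reads were aligned to mm9 with TopHat 1.4.1, and 2 values per gene were deposited. These deposited scores are named TPM but the difference between them is not stated, so their mean was used, and an entry of exactly 1 was read as 0.

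The members and all gene lists were chosen with earlier results of these data known. Members were fitted with all other genes, but no p is given for them, since their values chose them. All genes above 1 TPM in at least 1 library of a set were fitted with limma 3.58.1 (R 4.3.3) on log2(TPM + 0.1), two-sided, with a trend of the spread on expression and the Benjamini-Hochberg method across every gene of the set, and a gene with an adjusted p under 0.05 was called. The 3 sets were fitted separately, the pro-B set with read length as a term. The methods of the study compare genotypes pairwise on counts; counts of 2 libraries were used here, so whole reads were recovered from TPM with gene lengths (100% of values below 50 reads within 0.02 of a whole read) and used for edgeR 4.0.16 and DESeq2 1.42.0 as alternatives. The scripts were tested on simulated data with known changes. Adding 0.1 TPM understates differences of low genes.

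The named genes are the members and, per list and set, at most 4 called genes with the largest log2 difference, beside the 10 genes most like the members. Alternatives covered the pseudocount, the filter, size factors, read length, the pair of groups alone, each value of the T-lineage files, the replicate block and each library left out. Replicate numbers did not pair samples, since the correlations of samples with the same number ran from −0.16 to 0.10 in the Prd set and from −0.57 to 0.47 in the T-lineage set. ATAC-seq and ChIP-seq were not used here, and 2 columns of the authors' raw counts served only to recover depths.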

Additional observations from a re-analysis of the deposited data

Results flagged for a closer look

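Fos, Fosb and Jun in ∆/∆ progenitors lay on opposite sides of their controls in the 2 sets that hold this genotype. Against Pax5+/+ pro-B cells of the first set the log2 difference was 1.27 for Fos, 0.64 for Fosb and 0.97 for Jun, with both ∆/∆ libraries above all 5 controls. Against +/∆ pro-B cells of the second set it was −2.76, −2.15 and −0.85, with both ∆/∆ libraries below both controls. The label of the ∆/∆ progenitors names an alternative gating in the second set and not in the first. The difference between the sets was not tested. Set, sort gate, control genotype, Vav-Cre in the control and read length cannot be told apart. No member had an outlying library among the 5 Pax5+/+ libraries in Dixon's test, which flags about 1 in 20 groups by chance.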

How the results depend on the processing

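The counts of other immediate-early genes called (32, 36 and 42 in the pro-B, Prd and T-lineage sets) kept within 1.5 times of these values with 1 exception. That exception was the replicate block, which could be fitted in the pro-B set only for the 50-nucleotide libraries and 2 comparisons and gave 19. With the replicate block the Prd and T-lineage sets gave 34 and 41. Leaving out each library in turn gave 29 to 34, 26 to 38 and 39 to 43. The median log2 difference of the members over such fits ranged from −0.71 to 1.84 in ∆CRD1,2/∆CRD1,2 cells, −0.32 to 0.35 in ∆CRD1,2/− cells, −3.24 to −0.40 from LMPP to DN1, 0.74 to 3.92 from DN2b to DN3a and −2.77 to −0.14 in Rag2(-/-) cells, and from −1.18 to −1.0 for ∆/∆ and 0.67 to 0.96 for Prd/∆ against ∆/∆ in the Prd set. Where 1 library was left, it was assumed to vary like the other groups.

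An alternative chosen after seeing the data left out the 4 pro-B and 2 T-lineage libraries with high Fos of their pairs. It gave medians of −0.32 in ∆CRD1,2/−, −0.71 in ∆CRD1,2/∆CRD1,2, −0.40 from LMPP to DN1, 0.74 from DN2b to DN3a and −0.14 in Rag2(-/-) cells, and 35 and 39 other genes called. The mean in place of the median was −1.23 for ∆/∆ against +/∆, 1.45 for Prd/∆ against ∆/∆ and −2.63 in Rag2(-/-) cells. Counts over all genes moved by more than 1.5 times with the tool or the samples fitted: between Prd/∆ and ∆/∆ progenitors 255 genes were called by limma, 470 by edgeR and 1011 by DESeq2, and in ∆CRD1,2/− cells 3626, or 1558 with the 2 groups of the same read length alone and 5477 without the read length term. Of the single genes named, 64 of their fits under alternatives lost the call and none reversed it. Precision is limited by 2 libraries per group, and for Atf3 and Fosb by few reads.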
